A study of Mus musculus with 4 samples.

Results

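Neurotrophic factors and their receptors were followed through the cell types of the developing molar as 9 genes out of the 32285 counted. The genes are the ligands Bdnf, Ntf3, Gdnf and Nrtn and the receptors Ngfr, Ntrk2, Ntrk3, Gfra1 and Ret, chosen by symbol, and each symbol matched 1 row of the count tables. Single-cell RNA sequencing covered the maxillary and the mandibular molar of wild-type C57BL/6J mice (genotype label WTB6, no transgene or treatment) at the embryonic stage E15.5 (written E15 in the sample titles) and postnatal day 1 (P1). Each stage and jaw is 1 library made from 6 pooled tooth organs, so there is 1 library per group, no p-value was computed, and all intervals cover counting error only. Total UMIs (tags that each mark 1 captured RNA molecule) were 109723360 in the E15.5 maxillary, 86659227 in the E15.5 mandibular, 128812956 in the P1 maxillary and 139873101 in the P1 mandibular library. After filtering, 8395, 6059, 13760 and 7551 cells remained in that order, and the median cell held 9887, 11595, 3950.5 and 10983 UMIs. Values given as 4 numbers follow this order of libraries throughout.

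The P1 libraries shared 7131 barcodes, which is 38.1% of the maxillary and 36.8% of the mandibular barcodes, while every other pair of libraries shared between 28 and 70. Of the shared barcodes, 7093 (99.5%) held more UMIs in the maxillary library, with medians of 12088 there and 2870 in the mandibular one. Of those named in both libraries, 5231 of 5264 (99.4%) fell in the same compartment. Shared barcodes were therefore counted in the maxillary library only. They made up 98.9% of the P1 maxillary dental papilla-like, 97.4% of the odontoblast-named, 98.9% of the ameloblast-like, 98.7% of the osteoblast-named, 93.9% of the connective tissue fibroblast-like, 92.2% of the stellate reticulum/stratum intermedium-like and 44.9% of the dental follicle-like cells, but 8.9% of the glia-like cells and 5.1% of the mesenchyme-like cells that took no narrower name. Which jaw these cells came from cannot be told apart from the files, so P1 maxillary values for the first 6 of these classes rest almost wholly on them.

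Cells were clustered library by library without the 9 genes, and clusters were named from marker genes. The glia-like cells (162, 101, 337 and 62 cells) expressed all 8 glial markers in every library. These markers summed to 4470, 3945, 6867 and 11042 CPM (counts per 1000000 UMIs) there, against 7.73, 7.26, 19.1 and 27.2 CPM in mesenchyme. Neuronal markers summed to only 20.4, 18.2, 52.2 and 4.58 CPM in the glia-like cells. A neuron-like class of at least 50 cells was found in the P1 maxillary library alone (622 cells). The P1 maxillary library also held 821 chondrocyte-like and 383 olfactory support epithelium-like cells, which are not molar cell types. The label molar therefore covers surrounding tissue as well as the tooth organ. Odontoblast-named and osteoblast-named are used for classes that the marker rule named but whose leading genes or other markers partly go against the name.

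Neurotrophins are secreted proteins made by the tissues that nerves grow into. Bdnf encodes the ligand of the receptor tyrosine kinase TrkB (Ntrk2), and Ntf3 encodes neurotrophin-3, the ligand of TrkC (Ntrk3), while Ngfr encodes the low-affinity receptor that binds all neurotrophins. GDNF and neurturin (Nrtn) signal through the receptor tyrosine kinase Ret, which they reach by way of membrane-anchored coreceptors such as Gfra1. In teeth these families are known for the timing of pulp innervation, and Ngfr marks neural crest derived cells.

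On GRCm38, with GENCODE vM21 gene bodies, the ligand genes lie at chr2:109674700-109727007 (Bdnf, plus strand), chr6:126101412-126166910 (Ntf3, minus), chr15:7810846-7837575 (Gdnf, plus) and chr17:56751325-56757530 (Nrtn, minus). The receptor genes lie at chr11:95568818-95587735 (Ngfr, minus), chr13:58806569-59133970 (Ntrk2, plus), chr7:78175959-78738012 (Ntrk3, minus), chr19:58235604-58455909 (Gfra1, minus) and chr6:118151745-118197718 (Ret, minus). Antisense genes that were also counted overlap Bdnf, Ntrk2, Ntrk3 and Gfra1, and since the sources do not state whether counting used strand, levels of these 4 genes may include reads of the overlapping gene. Gm39038, a counted gene on the same strand, lies inside an intron of Ntrk3. Promoters of Ngfr and Gfra1, the receptors with the largest ratio of glia to mesenchyme in 3 of the 4 libraries, are shown from RefSeq (GRCm38.p6), from 250 bases before to 50 bases after the start, 5′ to 3′ on the gene's strand. Capitals mark the GC box GGGCGG or its reverse complement CCGCCC.
Ngfr, chr11:95587649-95587948, minus strand: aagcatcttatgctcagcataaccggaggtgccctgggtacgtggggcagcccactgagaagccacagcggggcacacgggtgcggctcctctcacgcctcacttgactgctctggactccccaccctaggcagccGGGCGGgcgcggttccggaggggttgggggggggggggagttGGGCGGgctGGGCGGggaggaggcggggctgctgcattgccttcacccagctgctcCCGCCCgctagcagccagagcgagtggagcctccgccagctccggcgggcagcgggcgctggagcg
Gfra1, chr19:58455349-58455648, minus strand: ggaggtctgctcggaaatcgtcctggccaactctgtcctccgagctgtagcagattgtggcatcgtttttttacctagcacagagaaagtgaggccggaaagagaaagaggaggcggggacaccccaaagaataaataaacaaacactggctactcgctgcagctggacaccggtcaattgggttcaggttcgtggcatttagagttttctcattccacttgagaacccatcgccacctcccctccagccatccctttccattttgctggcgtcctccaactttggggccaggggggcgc
The Gfra1 window lies inside the GENCODE gene body given above, since RefSeq places the start of this gene further downstream. The Ngfr promoter held 4 matches to the GC box and the Gfra1 promoter held 0. The letters ACAAAG (or CTTTGT), the core of the SOX motif, were in neither window. Over all 32851 RefSeq promoters of this length, 35.7% held a GC box and 18.7% the SOX core. RefSeq promoter entries were matched for 7 of the 9 genes.

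By the median over libraries, Gdnf was highest in odontoblast-named and then in dental papilla-like cells, among classes named in 2 or more libraries. It stood at 16.8 CPM (95% interval 12.8 to 21.6, 59 UMIs) in P1 maxillary and 19.2 CPM (15.9 to 22.9, 119 UMIs) in P1 mandibular odontoblast-named cells. In dental papilla-like cells it stood at 0.845, 12.3, 7.37 and 24.0 CPM, lowest in the E15.5 maxillary library (1 UMI in 125 cells) and highest in the P1 mandibular one. The highest Gdnf value of the classes compared was 34.2 CPM, in the P1 maxillary osteoblast-named cluster led by Spp1, Grm8 and Stbd1. Outside all of these Gdnf was mostly low. It did not exceed 5.37 CPM in follicle-like or 5.20 CPM in connective tissue fibroblast-like cells of any library, and immune-like and erythroid-like cells, which give the background of free RNA, had 0, 0.0662, 0 and 0.501 CPM. Glia-like cells of the E15.5 mandibular library had 11.8 CPM from 20 UMIs, against 1.53 to 3.86 CPM in the other 3 libraries.

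Neurotrophin-3 had several mesenchymal sources. Ntf3 stood at 18.6, 51.9, 27.0 and 10.0 CPM in dental papilla-like cells and at 15.49, 6.89, 49.7 and 41.5 CPM in the mesenchyme-like cells that took no narrower name. The order of these classes differed between libraries, so neither stood above the other throughout. Suprabasal oral epithelium-like cells had 26.2, 15.51, 24.2 and 5.48 CPM of Ntf3, while ameloblast-like and odontoblast-named cells at P1 had at most 0.4 and 1.29 CPM. Background cells had at most 0.811 CPM.

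By the median over libraries, Bdnf was highest in muscle-like and pericyte-like cells. Muscle-like cells had 31.9, 21.8, 20.4 and 37.8 CPM and pericyte-like cells 19.5, 24.4, 28.1 and 27.1 CPM, and the ranges of these classes overlapped. In the dental classes Bdnf reached 41.8 CPM in E15.5 mandibular follicle-like cells, 24.0 CPM in E15.5 mandibular papilla-like cells and 13.9 CPM in P1 maxillary odontoblast-named cells. Glia-like cells had 0 UMIs of Bdnf in 3 libraries and 1 in the P1 mandibular library.

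Among the named classes, Nrtn was highest in the gland epithelium-like cells of the maxillary libraries. Gland epithelium-like cells, which formed a class in the maxillary libraries only, had 85.7 CPM (72.0 to 101) in the E15.5 and 60.6 CPM (46.0 to 78.3) in the P1 library, above every other class named in 2 or more libraries. Suprabasal oral epithelium-like cells followed with 40.6, 27.8, 23.7 and 17.8 CPM. P1 maxillary olfactory support epithelium-like cells had 43.4 CPM, and ameloblast-like cells 1.60 and 1.18 CPM. Some mesenchymal classes held as much Nrtn. Follicle-like cells had 20.5, 9.24, 26.6 and 43.2 CPM, and the last value lay above the 17.8 CPM of suprabasal cells of that library. P1 mandibular mesenchyme-like cells had 40.6 CPM, P1 maxillary pericyte-like cells 37.5 CPM and E15.5 mandibular papilla-like cells 35 CPM. A P1 mandibular cluster of 221 cells led by Tfcp2l1, Wfdc18 and Ehf took no class name, although Wfdc18 and Ehf are gland markers here. It had 22.3 CPM of Nrtn, under the 43.2 CPM of follicle-like cells of that library.

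**Figure D1:**
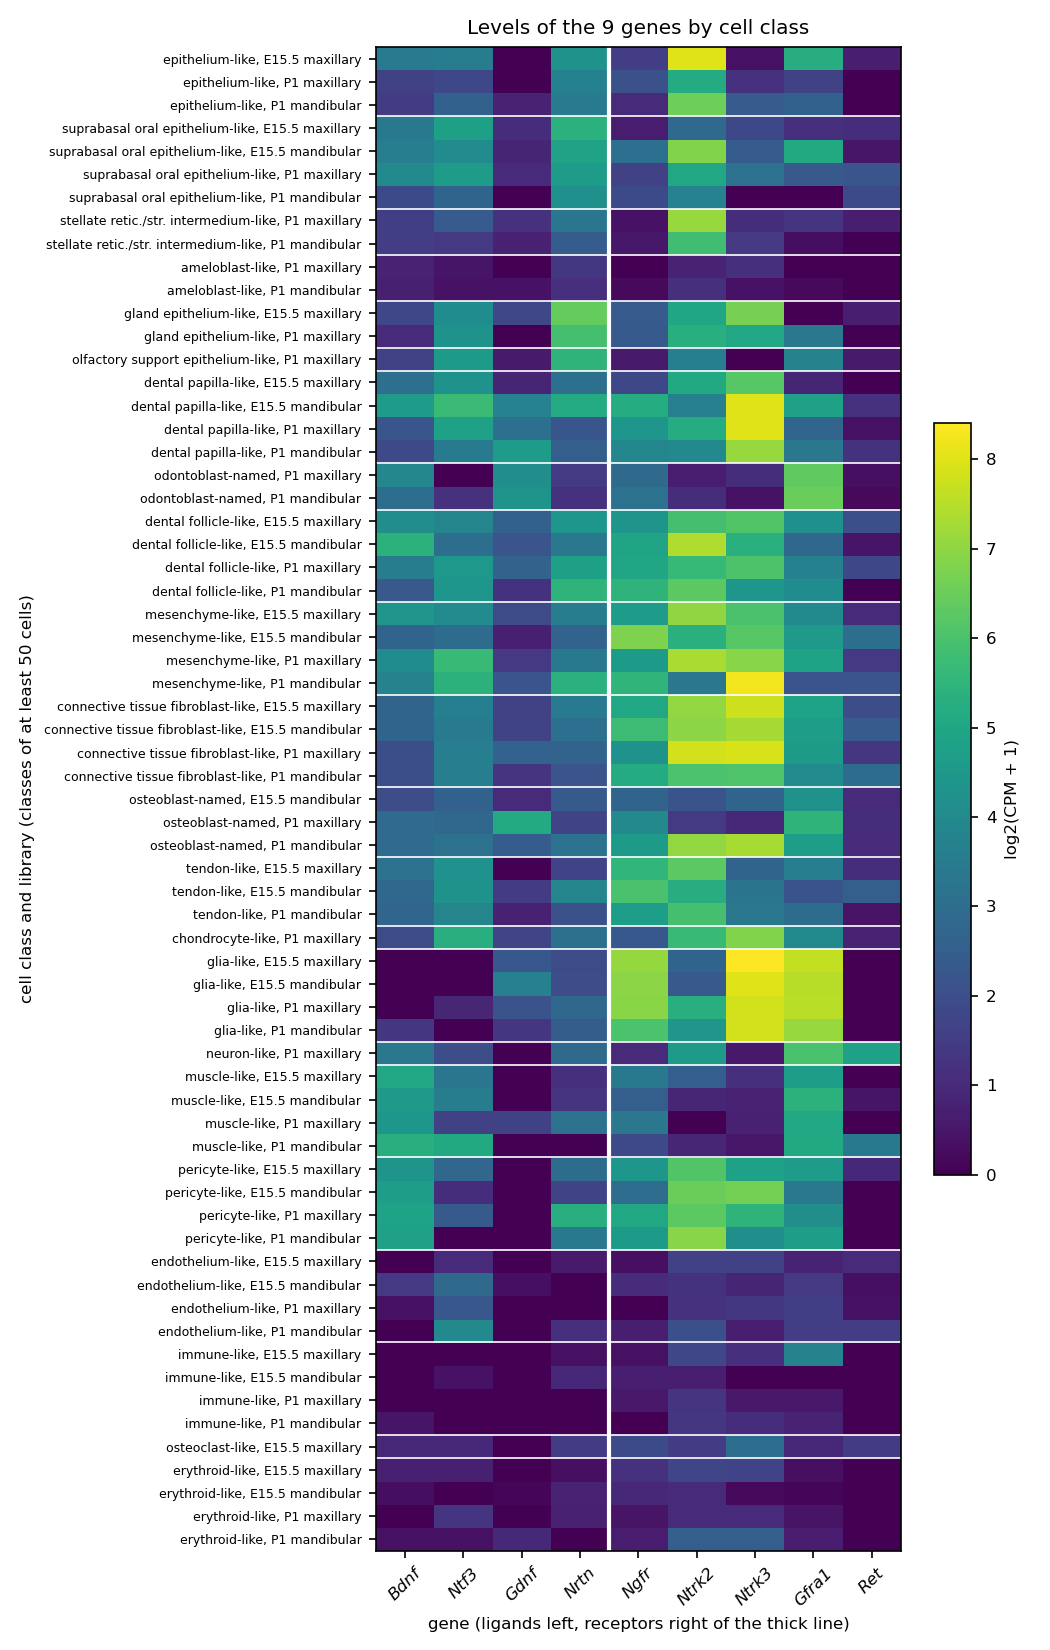
Level of each of the 9 genes (columns, ligands left and receptors right of the thick line) in each named class of at least 50 cells (rows, 1 per class and library), as log2(CPM + 1). The receptors Ngfr, Ntrk3 and Gfra1 are bright in the glia-like rows. Gdnf is bright in the P1 papilla-like, odontoblast-named and P1 maxillary osteoblast-named rows, and also in the E15.5 mandibular papilla-like and glia-like rows. The immune-like and erythroid-like rows are dark for nearly all genes.

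Ligand levels were compared between mesenchyme and epithelium, the compartments between which tooth signals are exchanged. Epithelium here means the epithelium-like, suprabasal, stellate reticulum/stratum intermedium-like and ameloblast-like cells, without gland and olfactory support epithelium-like cells. In the E15.5 mandibular library all of these cells took the suprabasal name. Mesenchyme was at least 2-fold higher in 8 of the 16 combinations of ligand and library. Of the 13 combinations that reached 5 CPM in the higher compartment 5 did so, beside 16.5% of all gene and library combinations with that minimum. Gdnf accounted for 4 of the 8, its E15.5 values lying under the minimum, with 2.78, 1.97, 10.4 and 15.6 CPM in mesenchyme against 0.773, 0.816, 0.565 and 0.574 CPM in epithelium, that is, differences of 1.85, 1.27, 4.20 and 4.76 on the log2 scale. The E15.5 mandibular difference rests on 2 epithelial UMIs, and its interval spans 0 (-0.63 to 4.34). Bdnf and Ntf3 passed the threshold at P1 only, Bdnf in the mandibular library from levels under 5 CPM. Bdnf had 15.51, 8.14, 6.85 and 3.82 CPM in mesenchyme against 9.76, 11, 3.28 and 1.49 CPM in epithelium. Ntf3 had 14.3, 10.1, 24.7 and 10.1 CPM against 21.4, 15.51, 5.25 and 2.64 CPM. Whether the difference between compartments itself changed with stage was not tested. Nrtn was lower in mesenchyme in all 4 libraries, with 11.2, 7.72, 5.66 and 5.5 CPM against 33.9, 27.8, 10.7 and 6.08 CPM, and the interval of the last ratio spans 0 (log2 -0.47 to 0.19). Gland epithelium-like cells, its highest class, are not part of this comparison.

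The receptors Ngfr and Gfra1 were highest in glia-like cells among the named classes of at least 50 cells in every library. Gfra1 stood at 199, 179, 187 and 138 CPM in glia-like cells and at 18.3, 20.9, 19.95 and 20.1 CPM in mesenchyme, a 10.8-, 8.59-, 9.35- and 6.84-fold difference. All 4 glial values lay above all mesenchymal ones, and the next class, odontoblast-named cells, had 81.3 and 88.5 CPM. Ngfr stood at 133, 123, 119 and 64.2 CPM in glia-like cells against 25, 66.9, 19.8 and 19.8 CPM in mesenchyme (5.32-, 1.84-, 6.01- and 3.24-fold). The E15.5 mandibular mesenchyme, at 66.9 CPM, overlapped the glial range, and its mesenchyme-like class alone had 110 CPM.

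Ntrk3 was shared by glia and mesenchyme, and glia-like cells were its highest class in the E15.5 maxillary library only. It stood at 339, 253, 225 and 229 CPM in glia-like cells against 102, 95.2, 174 and 102 CPM in mesenchyme (3.30-, 2.66-, 1.30- and 2.24-fold). Dental papilla-like cells had 74.4, 254, 253 and 137 CPM and connective tissue fibroblast-like cells 218, 155, 237 and 67.6 CPM, so these classes overlapped the glial range. Mesenchyme-like cells had 63.3, 73.2, 120 and 306 CPM, the last above the 229 CPM of glia-like cells of that library. After each cell was thinned to 2000 UMIs, 32.9%, 21.8%, 24.2% and 19.4% of the glia-like cells had a UMI of Ntrk3, against 63.6%, 56.4%, 28.2% and 56.5% unthinned. In the background cells the thinned share was 0.224%, 0, 0.245% and 0.604%. For Gfra1 the thinned glial shares were 26.1%, 20.8%, 23.8% and 17.7%, and for Ngfr 21.7%, 24.8%, 20.1% and 9.68%.

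At E15.5 Ntrk2 had the opposite distribution, with less in glia than in mesenchyme and epithelium as a whole. At P1 glia lay less than 2-fold below mesenchyme. Glia-like cells had 5.51, 4.12, 37.7 and 19.9 CPM of Ntrk2, mesenchyme 119, 70.9, 62.9 and 33.4 CPM and epithelium 82.8, 111, 64.7 and 49.4 CPM. The log2 ratio of glia to mesenchyme was -4.44, -4.11, -0.74 and -0.75, and the interval of the last reached 0.03. At P1 papilla-like cells (36.2 and 15.4 CPM) and mandibular mesenchyme-like cells (9.03 CPM) lay under the glial level of their library. Connective tissue fibroblast-like cells (226 and 64.1 CPM) and maxillary mesenchyme-like cells (162 CPM) lay above it. Within the epithelium Ntrk2 was uneven. E15.5 maxillary epithelium-like cells had 255 CPM, while suprabasal cells had 6.28, 111, 31.4 and 12.3 CPM over the 4 libraries. At P1 stellate reticulum/stratum intermedium-like cells had 136 and 55.4 CPM and epithelium-like cells 34.7 and 93.4 CPM, while ameloblast-like cells, with 0.8 and 1.18 CPM, were at the level of the background cells (1.22 and 3.34 CPM).

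Over the 5 receptors, glia was at least 2-fold above mesenchyme in 10 of 20 combinations of receptor and library. All 10 were among the 16 that reached 5 CPM in the higher class, beside 13.0% of all gene and library combinations with that minimum. The 10 were Gfra1 in all 4 libraries and Ngfr and Ntrk3 in 3 libraries each. The P1 maxillary glial values of Gfra1 and Ngfr were similar with and without shared barcodes, since the 30 glia-like cells with a shared and the 307 with an unshared barcode had 219 and 173 CPM of Gfra1 and 121 and 118 CPM of Ngfr. Ntrk3 had 284 CPM in the former and 201 CPM in the latter. The mesenchyme they were set against did hold many, since 4133 of its 7459 cells had a shared barcode, with 17.6 CPM of Gfra1 against 33.5 CPM in the others. Without the shared barcodes the log2 ratios of glia to mesenchyme were 2.45 for Gfra1, 2.63 for Ngfr and 0.68 for Ntrk3, in place of 3.23, 2.59 and 0.37.

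**Figure D2:**
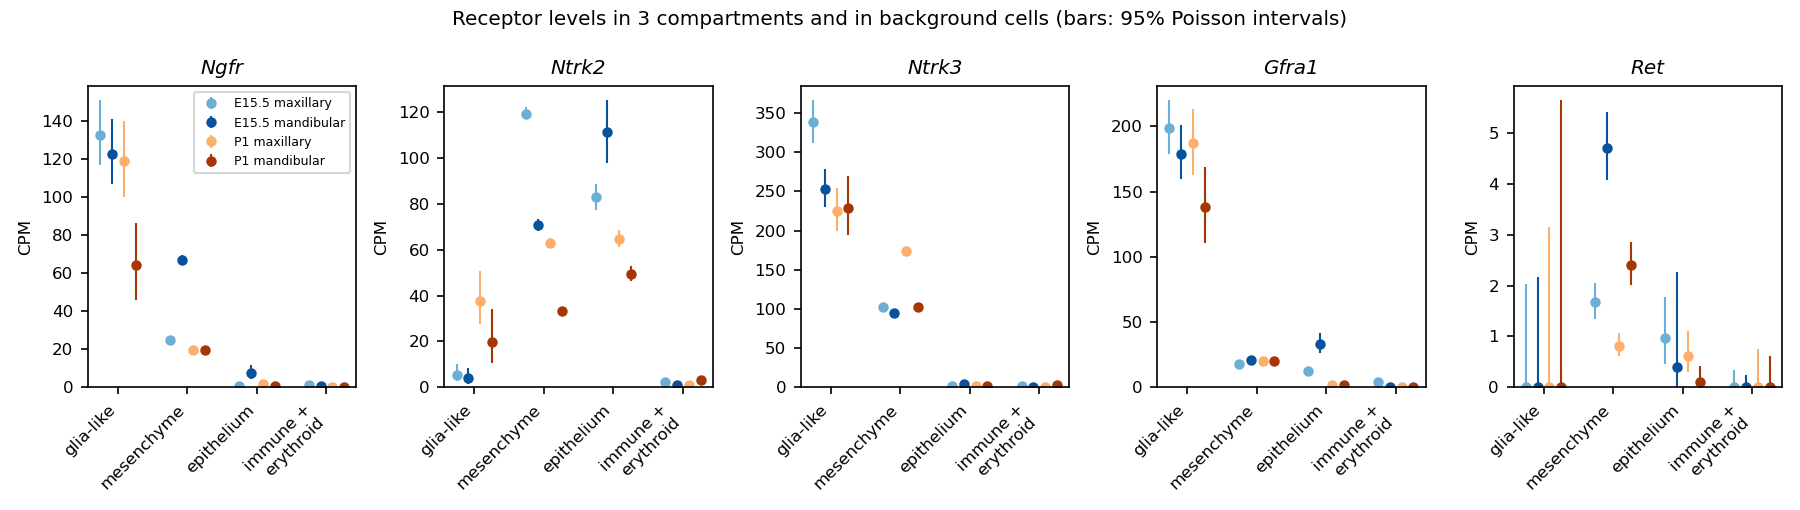
Level (CPM) of the 5 receptors in glia-like cells, all mesenchyme, all epithelium and the immune-like and erythroid-like background cells. Points are the 4 libraries and bars 95% Poisson intervals; Gfra1 lies between 138 and 199 CPM in glia and near 20 CPM in mesenchyme, and Ret stays below 5 CPM in all of these groups.

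Ret, the signaling receptor of the GDNF family, was low in most classes. Glia-like cells had 0 UMIs in every library, which allows levels of up to 1.65, 1.76, 2.57 and 4.58 CPM (3 counts). Mesenchyme had 1.67, 4.71, 0.818 and 2.40 CPM, and odontoblast-named cells at P1 had 1 UMI in each jaw. Its highest level in a named class was 26.8 CPM (20.1 to 35.0, 54 UMIs), in P1 maxillary neuron-like cells. P1 mandibular muscle-like cells had 9.67 CPM, E15.5 mandibular mesenchyme-like cells 7.22 CPM and P1 mandibular connective tissue fibroblast-like cells 6.81 CPM. Of the neuronal UMIs, 35 came from a cluster of 19 cells led by Vip, Prph and Phox2a, genes of autonomic neurons, at 156 CPM (109 to 217). The other 19 came from 603 cells led by Lhx2, Calb2 and Gng13, at 10.6 CPM. Gfra1 was divided the other way, with 0 UMIs in the 19 cells and 71.4 CPM (59.6 to 85.0) in the 603 cells, although 0 UMIs allow up to 13.4 CPM in so few cells. Only 2 of the 622 neuron-like cells had a shared barcode. The neuron-like class also had 57.6 CPM of Omp, the olfactory marker protein gene, against 0.0617 CPM in mesenchyme. Olfactory support epithelium-like cells were found in the same library, and whether any of these neurons reach the tooth was not tested.

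Odontoblasts, the dentin-forming cells, differentiate from the outer layer of the papilla, but the odontoblast-named cells at P1 were a mixture. Dspp, the dentin matrix gene, had 607 CPM in the single maxillary cluster (153 cells), whose 10 leading genes included more osteoblast than odontoblast markers (Bglap, Bglap2 and Ifitm5 against Dmp1 and Phex). In the mandibular library a cluster of 135 cells led by Dmp1, Bglap and Phex had 2325 CPM of Dspp. The other mandibular cluster, 201 cells led by Ifitm5 and Mamdc2, was mixed in both marker lists. Of the odontoblast markers it had 9.45 CPM of Dspp, 15.1 CPM of Dmp1 and 70.9 CPM of Phex but 2533 CPM of Smpd3 and 978 CPM of Cox4i2, and of the osteoblast markers 806 CPM of Ifitm5 and 403 CPM of Bglap but 5.32 CPM of Ibsp and 7.38 CPM of Spp1. Gfra1 stood at 57.7 CPM in the cluster of 135 and 114 CPM (103 to 126) in that of 201 cells, so it was higher in the cluster with little Dspp. The odontoblast-named cells were for this reason not compared between jaws, and their differences from the papilla are also given cluster by cluster. As 97.4% of the maxillary odontoblast-named cells had a shared barcode, the maxillary contrast could not be formed without them, while the mandibular one holds none. The maxillary class also depended on the clustering. It held 0 cells at resolution 0.6, with a minimum of 2000 UMIs, with an upper limit on detected genes and when the clustering was run in double precision, 16 cells with the shared barcodes dropped and 613 cells when each cell was named by its own markers, whereas the mandibular class held 298 to 674 cells in all of the alternatives in which cells were named again.

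At P1 Gfra1, Bdnf, Ntf3, Ntrk2 and Ntrk3 differed at least 2-fold between dental papilla-like and odontoblast-named cells in both jaws. Gfra1 stood at 81.3 CPM (72.2 to 91.3) in odontoblast-named against 5.66 CPM in papilla-like cells of the maxillary library and at 88.5 (81.3 to 96.2) against 8.98 CPM in the mandibular library, 14.4- and 9.86-fold higher. Thinned to 2000 UMIs, 21 of 153 maxillary (13.7%) and 52 of 336 mandibular odontoblast-named cells had a Gfra1 UMI, against 0.245% and 0 of the background cells. Ntrk3 went the other way, with 1.14 against 253 CPM and 0.322 against 137 CPM (223- and 426-fold lower, from 4 and 2 UMIs in odontoblast-named cells).

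The same direction held for Ntrk2, which had 0.569 against 36.2 CPM and 1.13 against 15.4 CPM. Ntf3 had 0 UMIs in maxillary odontoblast-named cells against 27.0 CPM in papilla-like cells, at least 31.6-fold lower when 0 is set to 3 counts, and 1.29 against 10.0 CPM in the mandibular library. Bdnf was higher in odontoblast-named cells, with 13.9 against 3.74 CPM and 7.24 against 2.61 CPM. Gdnf had 16.8 against 7.37 CPM in the maxillary but 19.2 against 24.0 CPM in the mandibular library. Ngfr was lower in odontoblast-named cells, with 6.54 against 20.6 CPM and, by less than 2-fold, 7.89 against 13.6 CPM. Nrtn and Ret lay under 5 CPM in both classes. Of the 7 genes with at least 5 CPM in both jaws, 2 (Bdnf and Gfra1) were at least 2-fold higher and 3 (Ntf3, Ntrk2 and Ntrk3) at least 2-fold lower in odontoblast-named cells of both jaws, beside 25.8% of all genes past the threshold in either direction. Each of the 3 odontoblast-named clusters taken alone was past the threshold for these 5 genes. In the cluster of 135 mandibular cells with the most Dspp the log2 ratios to the papilla were 2.68 for Gfra1, 1.81 for Bdnf, -4.82 for Ntf3 (1 UMI), -3.86 for Ntrk2 (3 UMIs) and -8.60 for Ntrk3 (1 UMI).

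Within the P1 mandibular papilla, Gdnf and Ntrk3 were high in different clusters. The papilla-like cluster led by Fabp7, Stbd1 and Alpl (538 cells) had 68.0 CPM of Gdnf (62.5 to 73.9) and 0.845 CPM of Ntrk3. The papilla-like cluster led by Cntn6 and Pappa (475 cells) had 1.77 CPM of Gdnf, 611 CPM of Ntrk3 (590 to 633) and 24.9 CPM of Ntf3. In the maxillary library a papilla-like cluster of 709 cells led by Col19a1 and Grik1 had 440 CPM of Ntrk3, 65.8 CPM of Ntf3 and 2.65 CPM of Gdnf. A cluster of 537 cells led by Spp1, Grm8 and Stbd1 had 34.2 CPM of Gdnf (30.5 to 38.3), 43.2 CPM of Gfra1 and 0.910 CPM of Ntrk3. The marker rule named it osteoblast, but Grm8, Stbd1 and Alpl also lead the mandibular papilla-like cluster with the highest Gdnf. Its 1237 CPM of Smpd3, 112 CPM of Dlx3 and 593 CPM of Cox4i2, odontoblast markers, stand beside 415, 139 and 323 CPM in that papilla-like cluster and 17.4, 1.85 and 8.53 CPM in the mandibular osteoblast-named cluster, which had 158 CPM of Ntrk3. The odontoblast markers Dspp (3.64 and 3.34 CPM) and Dmp1 (1.93 and 0.742 CPM) were low in both osteoblast-named clusters, and Phex had 7.05 and 26 CPM. Of the osteoblast markers, Spp1 had 222 and 351 CPM in them against 44.3 CPM in the papilla-like cluster. In the same order Ibsp had 64.9 and 213 against 9.06 CPM and Ifitm5 203 and 13.4 against 26.5 CPM. Bglap had 100 and 13.4 against 48.3 CPM and Bglap2 40.4 and 10.4 against 10.9 CPM. Sp7 had 104 and 28.9 against 47.5 CPM and Alpl 746 and 193 against 1072 CPM. The osteoblast-named class was therefore not compared between jaws. Among the maxillary papilla-like clusters the most Gdnf was in the one led by Scin and Rspo4 (713 cells), which had 19.0 CPM together with 81.0 CPM of Ntrk3.

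**Figure D3:**
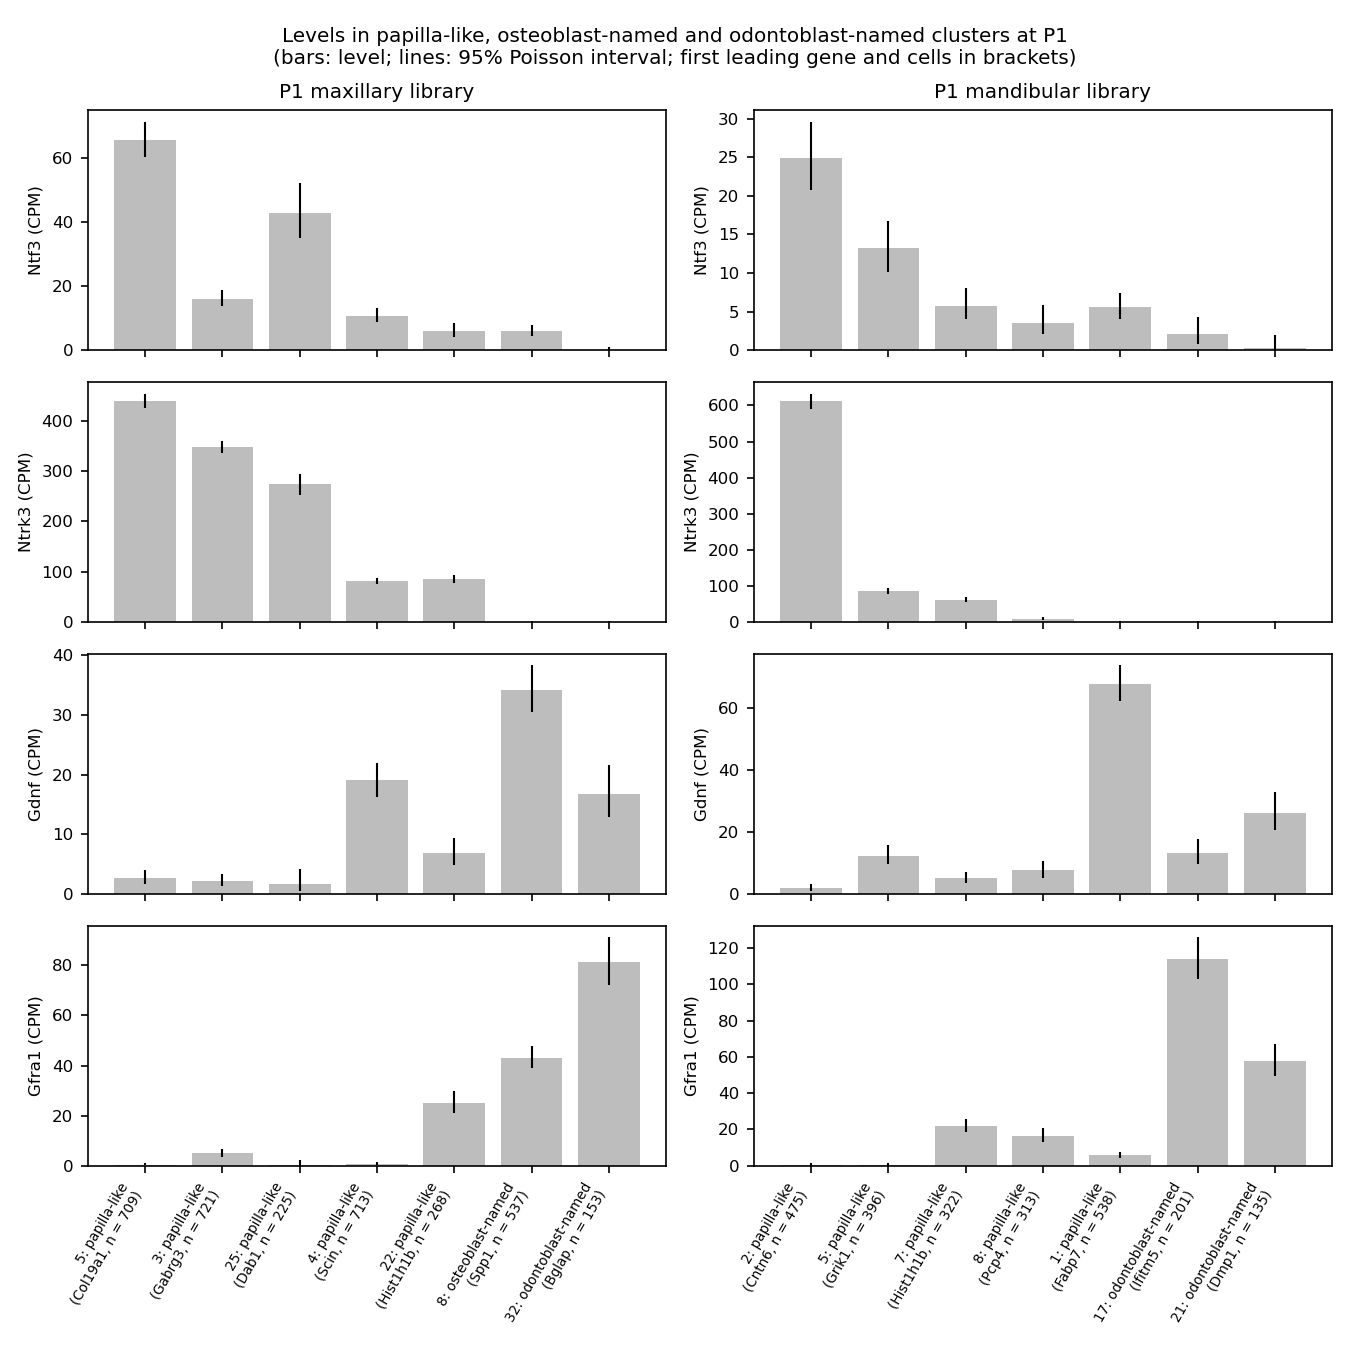
Levels (CPM) of Ntf3, Ntrk3, Gdnf and Gfra1 in the papilla-like and odontoblast-named clusters of the P1 maxillary (left) and P1 mandibular (right) libraries and in the maxillary osteoblast-named cluster. Bars give the level and lines the 95% Poisson interval; Ntrk3 peaks at 440 and 611 CPM in clusters with under 3 CPM of Gdnf, and Gfra1 is highest in odontoblast-named clusters.

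The other 21 genes of both pathways give the surroundings of these levels. All 12 other neurotrophin pathway genes reached 5 CPM in a class of both jaws at E15.5 and 11 did at P1, beside 43.2% and 44.9% of all genes counted. Of the 9 other GDNF family genes, 6 did at each stage, and the ligands Artn and Pspn and the receptor Gfral did not. Ntf5, a further neurotrophin ligand gene, was highest in epithelium-like cells at P1 (30.2 and 32.6 CPM). Glia-like cells were the highest class for the artemin coreceptor Gfra3, with 149, 54.1, 157 and 62.6 CPM against under 0.3 CPM in mesenchyme. They were also highest for Sorcs1, a sortilin-related sorting receptor (679, 670, 859 and 736 CPM). The neurturin coreceptor Gfra2 had 83.8, 105, 109 and 101 CPM in glia-like cells, the highest class at E15.5, but at P1 maxillary osteoblast-named cells had 144 CPM and mandibular papilla-like cells 125 CPM. Sorcs3, a relative of Sorcs1, stood at 24.5, 20.8, 197 and 180 CPM in papilla-like cells. In odontoblast-named against papilla-like cells, 0 of the 14 pathway genes tested were at least 2-fold higher and 6 were at least 2-fold lower in both jaws, beside the 25.8% of all genes past the threshold in either direction, among them Sorcs1, Sorcs3, Sorl1, Nradd and Gfra2. Sdc3, which encodes a heparan sulfate proteoglycan that binds GDNF, had 190 against 47.1 CPM and 186 against 97.3 CPM in odontoblast-named against papilla-like cells, a difference of 2.01 and 0.94 on the log2 scale.

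Stage was compared within each compartment and each jaw. Of the 27 combinations of gene and compartment, 7 reached 5 CPM and differed at least 2-fold in the same direction in both. In epithelium 4 of 5 genes were lower at P1, beside 11.4% of all genes in either direction. Gfra1 went from 12.3 to 1.81 CPM in the maxillary and from 33.5 to 2.01 CPM in the mandibular library (log2 ratios of -2.76 and -4.06). The ligands followed with log2 ratios of -2.03 and -2.55 for Ntf3, -1.66 and -2.19 for Nrtn and -1.57 and -2.88 for Bdnf. The make-up of the epithelium by class name moved with stage. Cells named suprabasal were 64.6% and 100% of it at E15.5 (94 cells in the mandibular library) and 14.0% and 4.63% at P1, when ameloblast-like cells were 11.3% and 38.5%. Within maxillary suprabasal cells alone, Bdnf went from 9.63 to 14.9 CPM, Ntf3 from 26.2 to 24.2 CPM, Nrtn from 40.6 to 23.7 CPM and Gfra1 from 1.26 to 4.11 CPM, so none of the 4 was 2-fold lower there. Within maxillary epithelium-like cells all 4 were lower at P1, with Bdnf going from 10.1 to 2.11 CPM, Ntf3 from 10.7 to 2.54 CPM, Gfra1 from 37.1 to 2.11 CPM and Nrtn, by less than 2-fold, from 18.8 to 12.1 CPM. In the mandibular suprabasal cells Bdnf went from 11 to 2.74 CPM and Ntf3 from 15.51 to 5.48 CPM, with 2 and 4 UMIs at P1. Gfra1 went from 33.5 to 0 CPM there, where 0 UMIs allow up to 4.11 CPM, and Nrtn from 27.8 to 17.8 CPM. The 94 E15.5 mandibular cells had 111 CPM of Ntrk2 and 33.5 CPM of Gfra1, against 6.28 and 1.26 CPM in E15.5 maxillary suprabasal cells. E15.5 maxillary epithelium-like cells had 255 and 37.1 CPM. For Nrtn and Ntf3 the 94 cells lay between both maxillary classes. Whether they include epithelial cells other than suprabasal ones was not tested, so these mandibular ratios may not compare like cells.

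In mesenchyme Gdnf was higher and Bdnf lower at P1 in both jaws, 2 of 8 genes, beside 7.72% of all genes. Gdnf went from 2.78 to 10.4 CPM in the maxillary and from 1.97 to 15.6 CPM in the mandibular library (log2 1.90, 1.64 to 2.16, and 2.98, 2.65 to 3.33). Bdnf went from 15.51 to 6.85 CPM and from 8.14 to 3.82 CPM (log2 -1.18 and -1.09). Ngfr went from 66.9 to 19.8 CPM in the mandibular (log2 -1.76) and, under the threshold, from 25 to 19.8 CPM in the maxillary library (-0.34, -0.45 to -0.22). Papilla-like cells were 2.51% and 4.40% of mesenchyme at E15.5 and 35.3% and 48.6% at P1. Within papilla-like cells the Gdnf ratio was 3.12 on the log2 scale in the maxillary library, from 1 UMI at E15.5, and 0.96 (0.31 to 1.70) in the mandibular one. Ntrk3 within papilla-like cells was higher at P1 in the maxillary (log2 1.77) and lower in the mandibular library (-0.89), and Ngfr likewise (3.02 from 3 UMIs at E15.5, and -1.42). The E15.5 papilla-like classes (125 maxillary and 121 mandibular cells) were unlike each other, with 74.4 and 254 CPM of Ntrk3 and 2.54 and 36.3 CPM of Ngfr. Whether the marker rule named the same kind of cell in both was not tested.

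The shared barcodes bear on these maxillary ratios. Without them the Gdnf ratio in maxillary mesenchyme was -0.27 and the Bdnf ratio -0.17, and with them alone the ratios were 2.08 and -1.53. After thinning each cell to 2000 UMIs the mesenchymal Gdnf and Bdnf ratios were 0.91 and -0.93, under the 2-fold threshold, and Bdnf in epithelium and Ntrk2 in glia were left with too few UMIs in the mandibular library to form a ratio. The mesenchymal Bdnf difference also fell short of 2-fold in the mandibular library with the shared barcodes kept in both libraries and in the maxillary library with the mean of per-cell CPM. In maxillary epithelium the Nrtn ratio was 0.39 and the Ntf3 ratio -0.65 without them. In glia 1 of 4 genes differed, beside 2.04% of all genes. Ntrk2 went from 5.51 to 37.7 CPM (10 and 44 UMIs) in the maxillary and from 4.12 to 19.9 CPM (7 and 13 UMIs) in the mandibular library, log2 ratios of 2.77 (1.76 to 3.93) and 2.27 (0.84 to 3.84). Without the shared barcodes the maxillary ratio was 2.52, but with the top Scrublet scores kept it was 0.91. Of the other pathway genes, Sorcs1, Sorcs3 and Sdc3 were higher at P1 in mesenchyme of both jaws (14 tested), Kidins220 higher and Sorcs1 lower in epithelium (12 tested), and 0 of 12 differed in glia. The median log2 ratio of all genes lay between -0.05 and 0.06 in every comparison of stages.

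**Figure D4:**
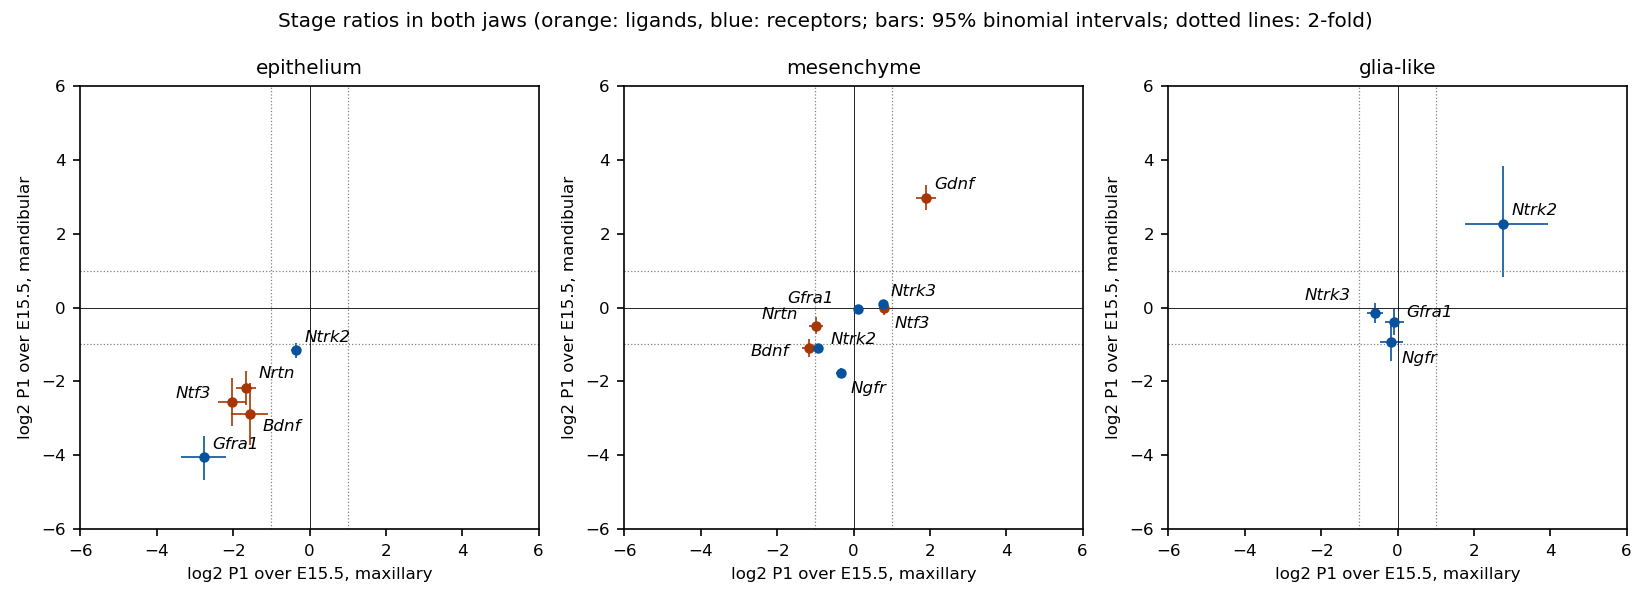
Log2 ratio of P1 to E15.5 in the maxillary (x axis) and mandibular (y axis) molar for genes with at least 5 CPM in both jaws, in epithelium, mesenchyme and glia-like cells. Orange points are ligands, blue points receptors, bars 95% binomial intervals and dotted lines the 2-fold threshold; Gdnf in mesenchyme and Ntrk2 in glia lie in the upper right and 4 epithelial genes in the lower left.

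Between the jaws none of the genes with at least 5 CPM differed at least 2-fold in the same direction at both stages, out of 3 tested in epithelium, 7 in mesenchyme and 4 in glia. The same rule called 0.598% of all genes in epithelium, 1.76% in mesenchyme and 1.53% in glia. Ngfr in mesenchyme was lower in the maxillary library at E15.5 (25 against 66.9 CPM, log2 -1.42, -1.52 to -1.33) and level at P1 (19.8 CPM in both, interval -0.12 to 0.12). Ntf3 in mesenchyme was higher in the maxillary library by 0.50 at E15.5 and by 1.29 at P1 on the log2 scale. Bdnf (0.93 and 0.84) and Ntrk2 (0.75 and 0.92) were higher there at both stages with intervals above 0, but by less than 2-fold. Ret in mesenchyme was lower in the maxillary library at both stages, with 1.67 against 4.71 CPM (log2 -1.50, -1.88 to -1.13) and 0.818 against 2.40 CPM (-1.55, -2.04 to -1.08), and was not counted because it lay under 5 CPM. Of the other pathway genes with at least 5 CPM only Gfra3 in glia was at least 2-fold higher in the maxillary library at both stages (149 against 54.1 and 157 against 62.6 CPM). At P1 the 2-fold difference depended on shared barcodes, since the 307 maxillary glia-like cells with an unshared barcode had 123 CPM of Gfra3, less than 2-fold above the mandibular value, and the 30 with a shared one 240 CPM. The make-up of the mesenchyme differed as well, since mesenchyme-like cells were 41.5% of it in the P1 maxillary and 2.24% in the P1 mandibular library, and connective tissue fibroblast-like cells 6.11% and 26%. Of the 7459 P1 maxillary mesenchyme cells, 4133 had a shared barcode, so their jaw is not known. Jaw and library cannot be told apart with 1 library each.

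Receptors that can act together were counted in the same cells, against the number expected if both were independent at a given depth. Over 6 pairs, 89 combinations of class and library had at least 5 expected cells, and 5 of them had at least 1.5 times the expected number, with a median ratio of 1.05. Over the other 429 pairs of the 9 and the 21 pathway genes, 2.67% of 6260 such combinations did, with a median of 1.01. Of these, 3 were the pair of Ntrk2 and Ntrk3. In E15.5 mandibular mesenchyme-like cells 117 cells held both against 58.6 expected, in P1 mandibular papilla-like cells 189 against 100 and in P1 mandibular connective tissue fibroblast-like cells 125 against 82. The others were Ngfr with Ret (11 against 5.12 cells, the highest ratio at 2.15) and Ngfr with Gfra1 (66 against 42.9), both in E15.5 maxillary mesenchyme-like cells. For Ntrk2 with Ntrk3 in P1 maxillary papilla-like cells the ratio was 1.40 (548 against 391 cells). Ret and Gfra1 could be counted in 3 combinations only, with ratios of 0.862 to 1.08.

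Genes with the most similar distribution were found by Pearson's r of log2(CPM + 1) over 65 named classes of at least 50 cells, among 13229 genes. These r values describe classes that share libraries and depth, and carry no p. Ntrk3 was most like Gm9885 (r = 0.912), an antisense gene inside Ntrk3 at chr7:78578830-78581038, so reads of one may be counted for the other. Ngfr was most like Col3a1 (0.875), a fibrillar collagen gene, followed by Lama2 (0.857) and Col16a1 (0.852). Ntrk2 was most like Aff3 (0.859) and Gfra1 most like Shisa4 (0.783). Among the ligands, Gdnf was most like Lhfpl3 (0.792), Ntf3 like Slc1a3 (0.799), Nrtn like Mllt3 (0.782) and Bdnf like Pakap (0.775). Ret had no gene above S100a5 at 0.640. Among the 9 genes themselves the highest values were those of Ngfr with Ntrk3 (0.758) and with Gfra1 (0.672), and of Nrtn with Ntrk2 (0.606).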

How the data were processed

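Single-cell libraries (10x 3′ v3.1 chemistry per the study's methods) were read from the deposited UMI counts per gene and barcode, which the authors made with Cell Ranger 7.0.1 (matrix header) on mm10; they are whole numbers without normalization. Barcodes with at least 1000 UMIs were kept. Barcodes shared by both P1 libraries (7131 before this minimum) were dropped from the mandibular one, which went from 16810 to 10120 barcodes. Cells over 3 median absolute deviations of mitochondrial share were removed, and the top Scrublet scores (0.8% per 1000 barcodes) were removed as doublets. Each library was clustered alone with scanpy 1.11.5 (2000 variable genes, 40 components, 15 neighbours, Leiden resolution 1.0), leaving out the 9 genes, the 21 other pathway genes, mitochondrial and ribosomal genes. Clusters were named from 23 marker lists (mean position of at least 0.4, at least 3 detected markers), by a rule set after the clusters but before the levels of the 9 genes had been seen. The 9 genes and all lists were chosen with earlier results of these data known.

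A level is the sum of a gene's UMIs over a class per 1000000 UMIs of that class (CPM), with exact Poisson intervals; ratios and shares have exact binomial intervals, all at 95%. PCR and dissociation errors and differences between animals are not covered. Levels were compared between classes, not between genes. A count of 0 was set to 3 for a ratio, which makes it a bound, and no ratio was formed where both counts were at or under 3. Differences of at least 2-fold between stages, jaws or odontoblast-named and papilla-like cells, and the shares over all genes, are counted where the higher class reached 5 CPM; the counts over 16 ligand and 20 receptor combinations have no such minimum and are also given with it. Shares of cells are also given after thinning each cell to 2000 UMIs. Genes named are the 9 members, pathway genes at 5 CPM in a class of both jaws of a stage, and the 5 genes most like each member; others are leading or marker genes of clusters, and pathway genes under that level are named as such only. Functions were tested on simulated counts. Alternatives are listed at the end. Protein sequences were not used here. Values of some genes of the pathway and marker lists are not reported here.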

Additional observations from a re-analysis of the deposited data

Results flagged for a closer look

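Levels of the 9 genes were also looked up in the clusters that took no class name and therefore entered no comparison. A cluster of 233 P1 maxillary cells led by pituitary hormone genes had 175 CPM of Ntrk2 (147 to 208) and 162 CPM of Ntrk3 (134 to 194), against 1.22 and 0.811 CPM in the immune-like and erythroid-like background cells of that library. Of these cells 6.87% had a barcode shared with the P1 mandibular library. A cluster of 221 P1 mandibular cells led by Tfcp2l1, Wfdc18 and Ehf had 22.3 CPM of Nrtn (15 to 31.8) and 71.3 CPM of Ntrk2 (57.8 to 87.1), against 0 and 3.34 CPM in the background cells. These values were singled out because they lie in cells outside the comparisons and above the background, with no test.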

How the results depend on the processing

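No paired test was run. Each stage and jaw is 1 library, and the groups share only 1 replicate number. Stage was compared within each jaw, and jaw within each stage, by direction and size. The number of receptor and library combinations at least 2-fold higher in glia ranged from 9 to 11 around 10 over 13 alternatives, that of ligands higher in mesenchyme from 6 to 9 around 8, and, over 12 alternatives, that of levels of at least 5 CPM from 59 to 72 around 62 of 108. The 7 stage differences became 4 with the shared P1 barcodes dropped from both libraries (Bdnf and Gfra1 in epithelium and Ntrk2 in glia of the 7, and Ntrk2 in epithelium in addition) and 3 after thinning to 2000 UMIs, and ranged up to 8. Dropping the shared barcodes turned the maxillary stage ratio of Gdnf in mesenchyme to -0.27 and that of Nrtn in epithelium to 0.39 on the log2 scale, and the cause was not tested. The 0 jaw differences became 1 with top Scrublet scores kept, 1 with each cell named by its own markers, 2 (Bdnf and Ntrk2 in mesenchyme) at a 1.5-fold threshold and 2 with no minimum of 5 CPM. The 5 of 89 receptor pairs became 18 of 154 with cells named by their own markers and 10 of 85 with 1 bin of depth. Over all alternatives, 1084 of 1296 single levels and 1032 of 1246 ratios moved by less than their counting interval. Restricting P1 maxillary cells to shared barcodes, restricting stage ratios to papilla-like cells, comparing odontoblast-named clusters one by one with the papilla and clustering in double precision were chosen after seeing the data. Differences between animals cannot be seen with 1 library per group.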

Other observations

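A P1 mandibular cluster of 49 cells that took no class name, led by Vpreb3, Igkc, Ighm and Cd79a, genes of B cells, had 341 CPM of Gfra1 (274 to 419, 89 UMIs) and 23.0 CPM of Ret (6 UMIs). Immune-like cells of the 4 libraries, which are other clusters, had 12.6, 0, 0.482 and 0.757 CPM of Gfra1. In P1 mandibular muscle-like cells Ret had 9.67 CPM (22 UMIs), against 0, 0.383 and 0 CPM in the muscle-like cells of the other 3 libraries. These values were chosen after they had been seen.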
